A study of Homo sapiens with 8 samples.

Results

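The BCL2 family decides whether the outer mitochondrial membrane is breached during apoptosis, and 10 of its genes were followed here by name in RNA sequencing of HT-29 cells: MCL1 and BCL2L1, BAK1 and BOK, BAD, BID, BIK, BCL2L11 and BMF, and BCL2L13. They are 10 of the 60796 genes in the expression table, and BAX, BBC3 and PMAIP1, relatives controlled by p53, were not included. All 10 passed the filter on low values, which kept 13388 genes with FPKM (an RNA level corrected for gene length and sequencing depth) of 1 or more in at least 2 libraries.

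HT-29 is an established human colorectal adenocarcinoma line. Cells labelled 5-FU received the drug 5-fluorouracil, which blocks thymidylate synthase and enters RNA and DNA. Cells labelled 74 3NP extract or 76 3P extract belong to a study of the rices MRQ 74 and MRQ 76, whose extracts were applied at their IC50, a standard measure of inhibitory concentration. Control cells are the fourth group. A single library was made of each at 24 h and another at 48 h, 8 in all. The labels give neither the 5-FU dose nor a vehicle for the controls, and they describe every library, controls included, as treated with a plant extract, so groups follow the sample titles. Separate cultures are not stated. The spread behind the p-values is what remains between libraries after treatment and time are each taken out. It may be technical or may hold treatment effects that differ between the times, and these cannot be told apart.

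In the family, BAK1 and its relative BAX form pores in the mitochondrial outer membrane, through which cytochrome c leaves to activate caspases. MCL1 and BCL2L1 (the gene of BCL-XL) bind and restrain the pore formers, and the BH3-only proteins relay stress by occupying these inhibitors or by activating the pore formers. Colorectal cancer cells commonly depend on BCL-XL and MCL-1 for survival. Much of the family's control is at the level of protein, by cleavage, phosphorylation and degradation, which RNA levels do not show.

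Depth, as reads recovered from FPKM, was 18141663 to 28048517 on genes per library. Colon epithelial markers were present, with 7 of 10 at FPKM of 1 or more in all 8 libraries and EPCAM at 215 to 350 FPKM. The label names the cells enterocytes, but 7 of 8 enterocyte markers, among them ALPI, SI and FABP1, were below 1 FPKM in every library. Of the markers of other cell types, PTPRC, CD3E, COL1A2 and PECAM1 stayed below 1 FPKM throughout, while LYZ reached 215 to 601 FPKM. At 48 h the 5-FU and 76 3P extract libraries stood apart, at 58.96 and -42.78 on the first principal component (44.5% of the variance), while the controls were at 1.10 and -6.46. Their share of reads on mitochondrial genes was 5.52% with 5-FU and 6.83% with 76 3P extract, and 2.96% and 3.18% in the control libraries. The part of these differences in the results was not tested, and differences called or near the threshold are given with and without them.

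The inhibitors were the most abundant members. Averaged over the 8 libraries, MCL1 had 82.5 FPKM and BCL2L1 66.4, followed by BAK1 at 39.5, BOK at 38.9, BAD at 21.5, BID at 15.0, BMF at 12.9, BCL2L13 at 8.53, BIK at 7.23 and BCL2L11 at 4.92. The ranges of every pair of neighbours in this order overlapped, and BAK1 exceeded BOK in 4 of 8 libraries. The widest spread across libraries was that of BAD, 3.87-fold between its lowest and highest level, and the narrowest that of BOK at 1.44-fold and BCL2L11 at 1.48-fold.

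**Figure D1:**
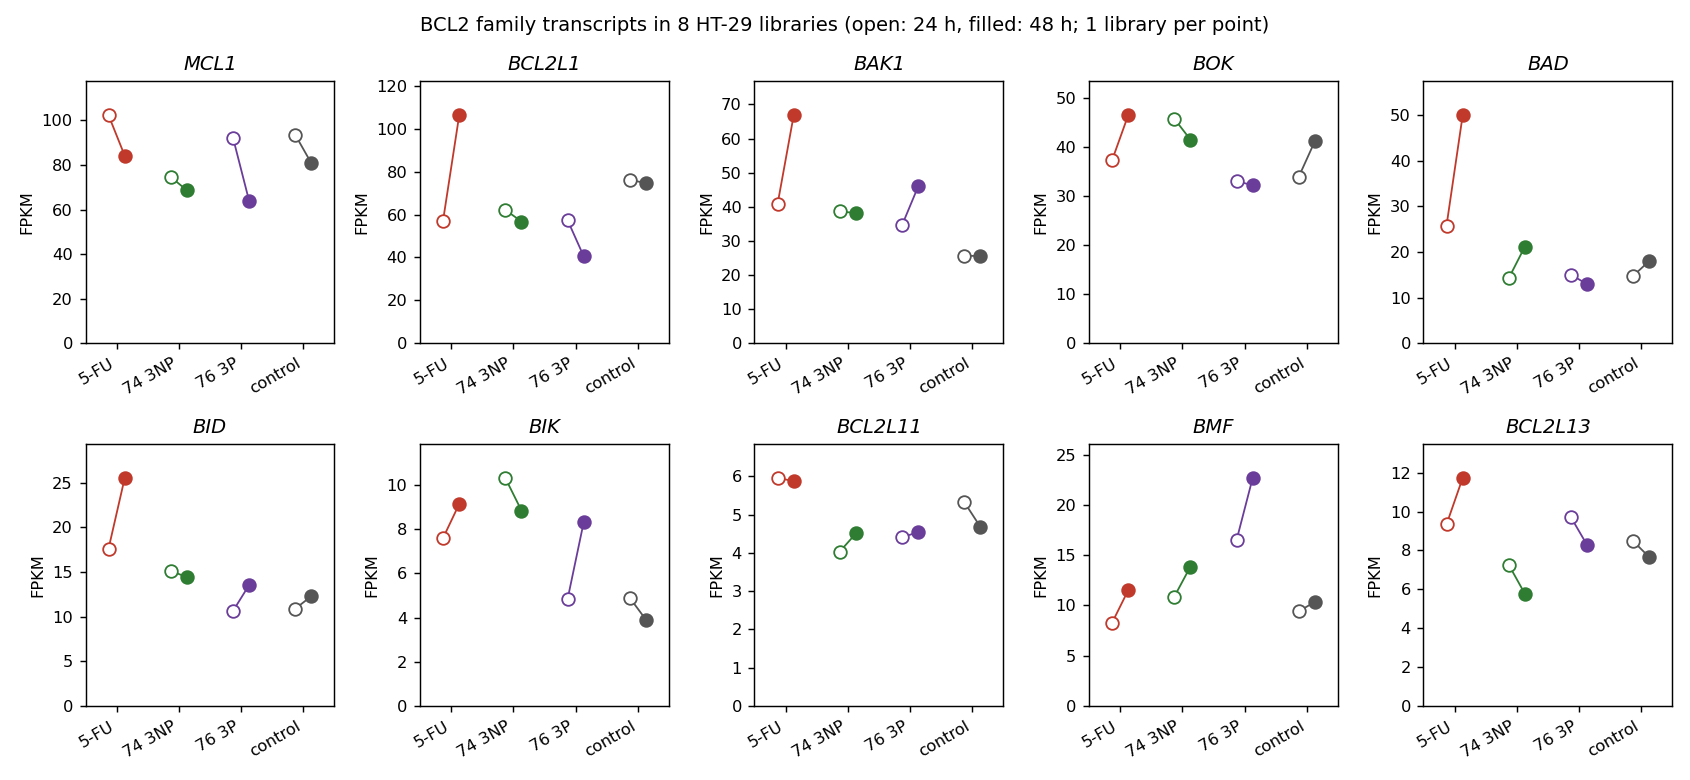
FPKM of the 10 members in each of the 8 libraries, 1 panel per member and 1 point per library, with open circles at 24 h, filled circles at 48 h and a line joining the times of a treatment. BAK1 is above both controls in all 6 treated libraries, BAD and BID are highest with 5-FU, and BMF is highest with 76 3P extract.

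Promoter sequences are shown for BAK1, BAD, BID and BMF, the 4 members that passed the test in at least 1 comparison. Each is the RefSeq sequence of GRCh38.p14 from 250 bases before to 50 bases after the annotated start, read 5′ to 3′ on the minus strand. Capitals mark matches on either strand to the GC box (GGGCGG), the CCAAT box (CCAAT) and the half-site of the cAMP response element (TGACG).
BAK1, chr6:33580227-33580526: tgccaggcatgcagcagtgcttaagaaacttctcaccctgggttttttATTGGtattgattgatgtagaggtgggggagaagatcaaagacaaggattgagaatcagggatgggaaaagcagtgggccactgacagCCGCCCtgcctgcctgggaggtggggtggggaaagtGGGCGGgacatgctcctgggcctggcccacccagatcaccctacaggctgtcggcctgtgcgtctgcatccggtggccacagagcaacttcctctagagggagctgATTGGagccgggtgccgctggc
BAD, chr11:64284655-64284954: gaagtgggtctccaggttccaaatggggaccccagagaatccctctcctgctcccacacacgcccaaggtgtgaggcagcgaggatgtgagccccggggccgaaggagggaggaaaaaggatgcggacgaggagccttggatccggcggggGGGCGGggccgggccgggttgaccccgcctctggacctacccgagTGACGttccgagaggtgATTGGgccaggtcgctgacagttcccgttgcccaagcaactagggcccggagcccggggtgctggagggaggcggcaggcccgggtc
BID, chr22:17774616-17774915: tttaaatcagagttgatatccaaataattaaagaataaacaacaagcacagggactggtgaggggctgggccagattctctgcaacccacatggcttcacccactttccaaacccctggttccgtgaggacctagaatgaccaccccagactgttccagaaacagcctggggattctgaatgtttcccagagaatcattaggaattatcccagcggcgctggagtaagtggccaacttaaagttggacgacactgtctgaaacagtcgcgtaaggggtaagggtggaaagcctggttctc
BMF, chr15:40108830-40109129: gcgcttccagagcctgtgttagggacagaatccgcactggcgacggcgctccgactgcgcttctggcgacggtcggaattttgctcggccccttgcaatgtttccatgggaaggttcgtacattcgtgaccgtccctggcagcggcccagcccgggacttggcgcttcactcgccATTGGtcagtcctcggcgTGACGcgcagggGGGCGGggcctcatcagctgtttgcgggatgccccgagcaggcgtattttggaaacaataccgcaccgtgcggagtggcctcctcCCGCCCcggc
The BAK1 window held 2 GC boxes and 2 CCAAT boxes, the BAD window 1 of each with 1 TGACG, and the BMF window 2 GC boxes, 1 CCAAT box and 1 TGACG. The BID window held none of these. Of the 8 members with a promoter entry, 6 had a GC box, against 45.0% of 35116 promoters of the same length, 5 had a CCAAT box (34.6%) and 3 had TGACG (24.6%). The start used lay 9729 bases from the gene start in the expression table for BCL2L13, 7321 for BOK and 1536 for BCL2L11. These 3 windows may therefore not be the main promoters of the measured genes. The forkhead site GTAAACA was found in the BCL2L11 window and 3.42% of all promoters, TATAAA in the BCL2L1 window and 11.5%, and the amino acid response element TGATGNAAN in no member and 3.61%. The motifs and the printed windows were chosen with the expression values known, the matches are letters and not binding data, and BIK and MCL1 have no entry.

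With 5-FU, the pore former BAK1 (ENSG00000030110, GRCh38 chromosome 6, 33572547 to 33580293, minus strand) rose. Its level was 40.7 FPKM at 24 h and 66.8 at 48 h in 5-FU cells, against 25.7 and 25.6 in control cells. Both 5-FU libraries lay above both controls, and the controls agreed within counting error at a ratio of 0.997 (exact 95% interval 0.922 to 1.08). The difference in log2(FPKM + 1), averaged over both times, was 1.00 (SE 0.24, limma adjusted p = 0.0499, 2 libraries per treatment). BAK1 was the 1 of 10 members called higher, where 2.51% of the 13388 genes tested were called higher and 3.02% lower. With its adjusted p next to the threshold, the call ended with a pseudocount of 5, without the filter, without the variance trend, under 2 other scalings and with a correction for gene length and GC content (adjusted p 0.0518 to 0.204). It also ended when either control, the 5-FU 48 h library or either 74 3NP extract library was left out (difference 0.71 to 1.18, adjusted p 0.0895 to 0.454), and without the 5-FU 48 h library the difference was 0.71 (adjusted p = 0.249).

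Another 3 members, all BH3-only genes, were higher in both 5-FU libraries than in both controls by 0.80 to 1.09, without passing the test. BCL2L11 and BCL2L13 also lay above both controls in both 5-FU libraries, by 0.21 and 0.34. The share of all genes whose 5-FU libraries both lay above both controls was not counted, nor was such a share in any later comparison. BAD, whose protein neutralises BCL-XL when dephosphorylated (ENSG00000002330, chromosome 11, 64269830 to 64284704, minus strand), had 25.8 and 50.0 FPKM at 24 h and 48 h in 5-FU cells, against 14.8 and 18.1 in control cells. The 5-FU libraries exceeded the other 6, and the difference was 1.09 (SE 0.27, limma adjusted p = 0.0532). BAD passed with a filter at FPKM 5, with voom, with the 4 libraries compared alone, and without the 5-FU 24 h library or either 76 3P extract library (adjusted p 0.0235 to 0.0384). It was 0.73 without the 5-FU 48 h library (adjusted p = 0.295), and the adjusted p was 0.21 and 0.424 without the control 24 h and 48 h libraries and 0.0952 without either 74 3NP extract library. GPR137, which overlaps BAD on the opposite strand, rose as well, with 18.0 and 29.3 FPKM in 5-FU cells against 8.64 and 10.3 in control cells (difference 1.20, SE 0.26, adjusted p = 0.0432). GPR137 was not called without the 5-FU 48 h library (0.83, adjusted p = 0.242), either control (0.21 and 0.332) or either 74 3NP extract library (0.0817 and 0.0819). The sources used here do not say whether reads were counted by strand, so reads of the 2 genes cannot be told apart with certainty. Annotated genes that overlap the other members stayed below 1 FPKM except ABALON, antisense to BCL2L1, at 2.21 to 5.73 FPKM.

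BID, which caspase-8 cleaves to link death receptors to mitochondria (ENSG00000015475, chromosome 22, 17734138 to 17774770, minus strand), had 17.6 and 25.5 FPKM at 24 h and 48 h in 5-FU cells, against 10.9 and 12.3 in control cells. Both 5-FU values were above those of the other 6 libraries, and the difference was 0.82 (SE 0.21, limma adjusted p = 0.0546), which passed with a filter at FPKM 5 (0.0332), with voom (0.0432) and without the 5-FU 24 h library (0.0291). It did not pass in the other 7 fits that left out a library, with 0.63 without the 5-FU 48 h library (adjusted p = 0.256) and an adjusted p of 0.236 and 0.442 without the control 24 h and 48 h libraries. BIK, a BH3-only protein of the endoplasmic reticulum (ENSG00000100290, chromosome 22, 43110750 to 43129712, plus strand), had 7.60 and 9.14 FPKM in 5-FU cells, against 4.89 and 3.90 in control cells. Its groups did not overlap either, with a difference of 0.80 (SE 0.25, adjusted p = 0.091), which was 0.71 without the 5-FU 48 h library (0.37). BIK is the shortest member and rests on few reads, 85 in the control 48 h library.

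The remaining BH3-only members differed less from the control with 5-FU. BCL2L11, the gene of BIM, an activator of BAX and BAK1 (ENSG00000153094, chromosome 2, 111119378 to 111168445, plus strand), had 5.96 and 5.88 FPKM in 5-FU cells, against 5.33 and 4.68 in control cells (difference 0.21, SE 0.18, limma adjusted p = 0.455). BMF, a BH3-only protein that binds the dynein light chain DYNLL2 (ENSG00000104081, chromosome 15, 40087890 to 40108892, minus strand), had 8.26 and 11.5 FPKM in 5-FU cells, against 9.41 and 10.4 in control cells. The 5-FU values of BMF enclosed the controls, and the difference was -0.01 (SE 0.19, adjusted p = 0.968).

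The inhibitors showed no common direction with 5-FU. MCL1, a short-lived inhibitor (ENSG00000143384, chromosome 1, 150574551 to 150579738, minus strand), had 102 FPKM at 24 h and 84.2 at 48 h in 5-FU cells, against 93.5 and 80.7 in control cells (difference 0.09, SE 0.21, limma adjusted p = 0.79). BCL2L1 (ENSG00000171552, chromosome 20, 31664452 to 31723989, minus strand) had 57.1 and 106 FPKM in 5-FU cells, against 76.2 and 74.7 in control cells. It was thus lower than the control at 24 h and the highest of all 8 libraries at 48 h, and the mean difference was 0.05 (SE 0.31, adjusted p = 0.936). BOK, a relative of BAX and BAK1 (ENSG00000176720, chromosome 2, 241551424 to 241574131, plus strand), had 37.2 and 46.4 FPKM in 5-FU cells, against 33.9 and 41.2 in control cells (difference 0.15, adjusted p = 0.659). BCL2L13, a mitochondrial outer membrane protein also linked to mitophagy (ENSG00000099968, chromosome 22, 17628855 to 17730855, plus strand), had 9.34 and 11.7 FPKM in 5-FU cells, against 8.48 and 7.65 in control cells (difference 0.34, adjusted p = 0.293).

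In all, 9 of 10 members had a positive mean difference with 5-FU, although BCL2L1 and MCL1 turned negative when libraries were scaled to total reads, and those and BOK under quantile normalization. The median over the members was 0.27, and 0.003 over all genes tested. Scaling to total reads shifted the median of all genes in the 5-FU 48 h library by -0.11 on the log2 scale. BAK1, BAD and BID were at least 1.5-fold higher than the control at both times on the log2(FPKM + 1) scale, 3 of 10 members, as were 6.4% of all genes.

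**Figure D2:**
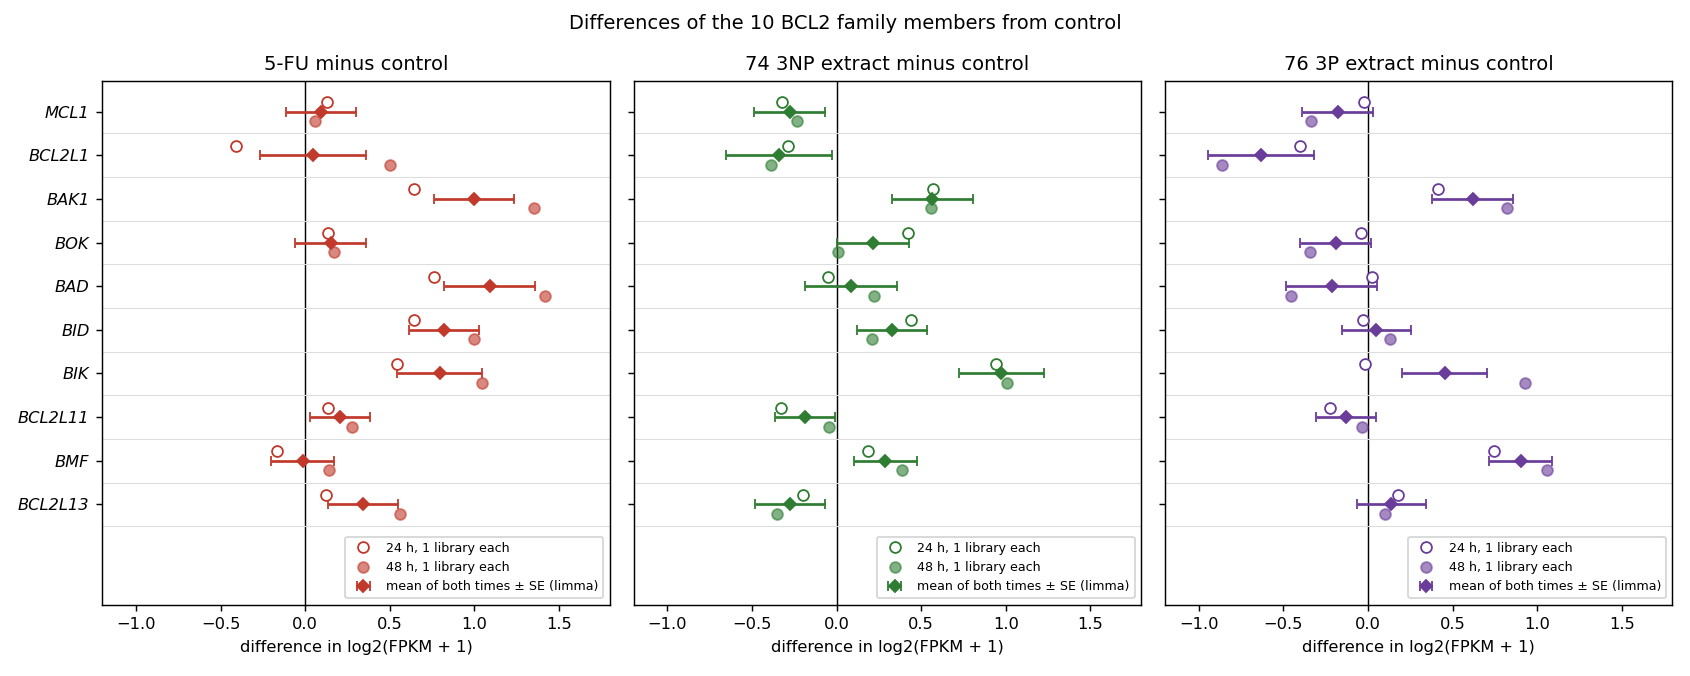
Difference from the control in log2(FPKM + 1) for each member with 5-FU, 74 3NP extract and 76 3P extract, as open circles at 24 h, filled circles at 48 h (1 library against 1 each) and diamonds with SE for the mean of both (limma). BAK1 lies to the right of 0 in all 3 panels, at 1.00, 0.57 and 0.62, and BCL2L1 is on opposite sides of 0 at the 2 times with 5-FU only.

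The 5-FU differences at 48 h went with gene length. The median difference at 48 h was 0.20 in the shortest of 3 nearly equal groups of the genes tested (up to 3055 bases), 0.06 in the middle group and -0.23 in the longest (from 5989 bases), while at 24 h the medians were 0.04, 0.07 and -0.03. The medians fell in the same order with the extracts against control. With 74 3NP extract they were 0.05, -0.01 and -0.08 at 24 h and 0.09, -0.02 and -0.14 at 48 h. With 76 3P extract they were 0.04, -0.01 and -0.04 at 24 h and -0.04, -0.11 and -0.13 at 48 h. What part length played in the members' differences was not tested. BIK at 951 bases, BAD at 1708 and BAK1 at 2212 are in the shortest group, as is BOK at 2680, whose difference at 48 h was 0.17. After a correction for length and GC content the 5-FU differences were 0.77 for BAK1 (limma adjusted p = 0.0568), 1.02 for BAD (0.0584), 0.74 for BID (0.0548) and 0.65 for BIK (0.125).

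**Figure D3:**
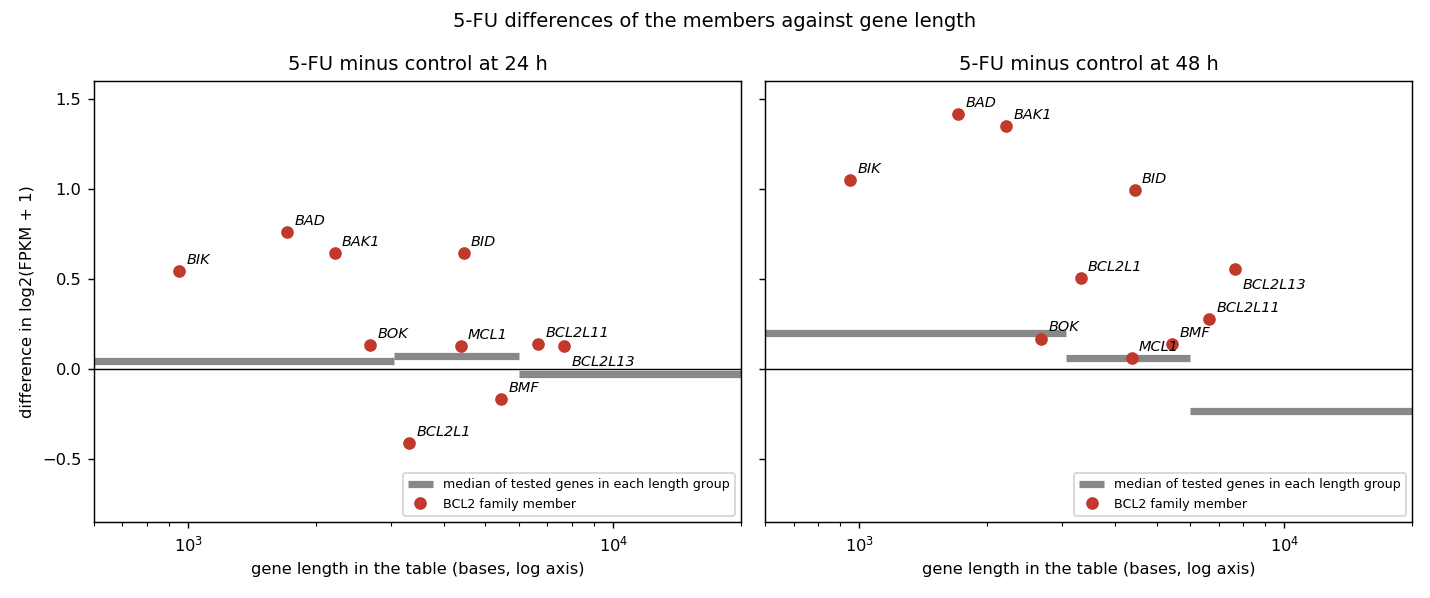
Difference between 5-FU and control in log2(FPKM + 1) for each member against its gene length (bases, log axis) at 24 h and 48 h, 1 library against 1. Grey bars are the medians of the shortest, middle and longest of 3 nearly equal groups of the tested genes, 0.20, 0.06 and -0.23 at 48 h, and BAD, BAK1, BIK and BID lie above them at both times.

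With 74 3NP extract, BIK was the member farthest from the control. It had 10.3 and 8.84 FPKM at 24 h and 48 h in 74 3NP extract cells, against 4.89 and 3.90 in control cells. These are read ratios of 2.11 (exact 95% interval 1.65 to 2.71) and 2.27 (1.73 to 2.99), with intervals for counting error only. The difference was 0.97 (SE 0.25, limma adjusted p = 0.233), with both extract libraries above both controls. BAK1 had 38.6 and 38.2 FPKM in 74 3NP extract cells, against 25.7 and 25.6 in control cells, also without overlap (difference 0.57, SE 0.24, adjusted p = 0.399).

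limma called 0 of 10 members with 74 3NP extract, where 0.0523% of all genes were called higher and 0 lower. At an unadjusted p under 0.05 there were 2 members, BAK1 and BIK, beside 1623 of the 13388 genes tested, and voom called 0 members. In a limma fit of the 4 libraries compared alone, both were called, BIK at an adjusted p of 0.00607 and BAK1 at 0.0313. That fit leaves fewer degrees of freedom for the spread than the main fit. The share of all genes it called is not given here, so these calls cannot be set against it. BIK alone was at least 1.5-fold higher at both times, 1 of 10 members, as were 4.45% of all genes.

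Both inhibitors had lower values in 74 3NP extract cells than in control cells at both times, without passing the test. BCL2L1 had 62.2 and 56.7 FPKM in 74 3NP extract cells, against 76.2 and 74.7 in control cells (difference -0.34, SE 0.31, limma adjusted p = 0.678). MCL1 had 74.6 and 68.6 FPKM in 74 3NP extract cells, against 93.5 and 80.7 in control cells (difference -0.28, SE 0.21, adjusted p = 0.608). BID had 15.2 and 14.4 FPKM with the extract against 10.9 and 12.3 in controls (difference 0.33), and BMF 10.9 and 13.9 FPKM with the extract against 9.41 and 10.4 in controls (difference 0.29). Neither gene's values overlapped the controls, but the share of all genes without such overlap was not counted. BOK had 45.8 and 41.5 FPKM with the extract against 33.9 and 41.2 in controls (difference 0.22), level with the control at 48 h. BAD had 14.3 and 21.2 FPKM with the extract against 14.8 and 18.1 in controls (difference 0.09), and enclosed them. BCL2L13 had 7.27 and 5.77 FPKM with the extract against 8.48 and 7.65 in controls (difference -0.28). BCL2L11 had 4.04 and 4.51 FPKM with the extract against 5.33 and 4.68 in controls (difference -0.19), and like BCL2L13 it was lower in both extract libraries than in both controls. The adjusted p of these last 6 members was between 0.545 and 0.921.

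With 76 3P extract, BMF was the member farthest from the control. It had 16.5 and 22.7 FPKM at 24 h and 48 h in 76 3P extract cells, against 9.41 and 10.4 in control cells. Both values exceeded all 6 other libraries, with read ratios to the control of 1.75 (exact 95% interval 1.63 to 1.88) and 2.19 (2.05 to 2.34). The difference was 0.90 (SE 0.19, limma adjusted p = 0.0961), which passed with a filter at FPKM 5 (0.0426) but in none of the 8 fits that left out a library. It was 0.83 without the 76 3P extract 48 h library (adjusted p = 0.556), and the adjusted p was 0.372 and 0.708 without the control 24 h and 48 h libraries. BAK1 had 34.6 and 46.0 FPKM in 76 3P extract cells, against 25.7 and 25.6 in control cells (difference 0.62, SE 0.24, adjusted p = 0.237), and without the extract's 48 h library the difference was 0.53 (0.801).

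limma called 0 of 10 members with 76 3P extract, and 0 of all genes in either direction. At an unadjusted p under 0.05 there were 2 members, BAK1 and BMF, beside 2356 of the 13388 genes tested, and voom called 0 members. BMF was at least 1.5-fold higher at both times, 1 of 10 members, as were 3.41% of all genes.

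BCL2L1 was at its lowest in the 76 3P extract 48 h library. It had 57.4 and 40.6 FPKM in 76 3P extract cells, against 76.2 and 74.7 in control cells (difference -0.63, SE 0.31, limma adjusted p = 0.338), and the difference was -0.27 when the extract's 48 h library was left out and -1.00 when its 24 h library was. MCL1, at 92.2 and 63.8 FPKM with the extract against 93.5 and 80.7 in controls, was likewise lowest in that library (difference -0.18). BIK had 4.82 and 8.31 FPKM with the extract against 4.89 and 3.90 in controls, so that it matched the control at 24 h and was 2.13-fold (exact 95% interval 1.65 to 2.78) the control at 48 h. BAD had 15.1 and 12.9 FPKM with the extract against 14.8 and 18.1 in controls (difference -0.21). BID had 10.6 and 13.6 FPKM with the extract against 10.9 and 12.3 in controls (difference 0.05). BCL2L13 had 9.71 and 8.28 FPKM with the extract against 8.48 and 7.65 in controls (difference 0.14), and these 3 genes overlapped the controls. BOK had 33.0 and 32.2 FPKM with the extract against 33.9 and 41.2 in controls (difference -0.19), and BCL2L11 had 4.41 and 4.54 FPKM with the extract against 5.33 and 4.68 in controls (difference -0.13). Both were lower in both extract libraries than in both controls, and the share of all genes for which this held was not counted. The adjusted p of these 7 members was between 0.388 and 0.924.

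The comparisons with the control share the same 2 control libraries. Side by side, BAK1 was 1.00 above the control with 5-FU, 0.57 with 74 3NP extract and 0.62 with 76 3P extract. BIK was 0.80, 0.97 and 0.45 above it in the same order, and BMF -0.01, 0.29 and 0.90.

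Set directly against 5-FU, 76 3P extract differed in 3 BH3-only genes. BMF was higher than with 5-FU, with 16.5 and 22.7 FPKM in 76 3P extract cells against 8.26 and 11.5 in 5-FU cells (difference 0.92, SE 0.19, limma adjusted p = 0.0179). BAD was lower, with 15.1 and 12.9 FPKM in 76 3P extract cells against 25.8 and 50.0 in 5-FU cells (difference -1.30, SE 0.27, adjusted p = 0.0189). So was GPR137 on its opposite strand (-1.19, adjusted p = 0.0228). GPR137 was -0.82 without the 5-FU 48 h library and -0.80 without the 48 h library of 76 3P extract, and was called in neither fit. BID was lower, with 10.6 and 13.6 FPKM in 76 3P extract cells against 17.6 and 25.5 in 5-FU cells (difference -0.77, SE 0.21, adjusted p = 0.0361). From the control, BMF, BAD and BID differed by 0.90, -0.21 and 0.05 with 76 3P extract. With 5-FU they differed from it by -0.01, 1.09 and 0.82. For all 3 genes the 2 groups did not overlap, but the share of all genes without such overlap was not counted. Called were 1 of 10 members higher and 2 lower, where 8.78% of all genes were called higher and 10.5% lower.

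These calls were not kept in every fit that left out a library. With all 8 libraries the differences were 0.92 for BMF, -1.30 for BAD and -0.77 for BID. Without the 5-FU 48 h library, and likewise without the 76 3P extract 48 h library, none of the 3 was called: the differences were then 0.99 and 0.85 for BMF, -0.94 and -0.91 for BAD, and -0.59 and -0.83 for BID (adjusted p 0.0694 to 0.172). BID passed in only 1 of the 8 fits that left out a library, the one without 5-FU 24 h (-0.96, adjusted p = 0.026), and missed the threshold when libraries were scaled to total reads (-0.64, adjusted p = 0.0513), under quantile normalization (-0.56, 0.0714) or with the 4 libraries compared alone (0.102). Without the filter on low values none of the 3 was called (adjusted p 0.0823 to 0.119). BCL2L1, at -0.68 (SE 0.31, adjusted p = 0.148), did not pass, and its difference was 0.01 at 24 h and -1.37 at 48 h.

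Between 74 3NP extract and 5-FU, limma called 0 of 10 members, where 6.1% of all genes were called higher and 4.69% lower. BAD was nearest, with 14.3 and 21.2 FPKM in 74 3NP extract cells against 25.8 and 50.0 in 5-FU cells (difference -1.00, SE 0.27, adjusted p = 0.0502), and it was the 1 member called by voom. Without the 5-FU 48 h library it was -0.64 (adjusted p = 0.256), while it passed without the 5-FU 24 h library or either 76 3P extract library (0.0255 to 0.0274). BCL2L13 followed at -0.62 (SE 0.20, adjusted p = 0.0834), or -0.36 without the 5-FU 48 h library (0.328), and 3 members, these and BID, had an unadjusted p under 0.05. Over all 13388 genes, 4277 had an unadjusted p under 0.05 between 74 3NP extract and 5-FU, and voom called 1751. The comparisons of the 2 extracts with 5-FU share the 5-FU libraries.

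Between the extracts themselves, limma called 0 of 10 members and 0 of all genes, and voom called 0 members. BMF, with 10.9 and 13.9 FPKM in 74 3NP extract cells against 16.5 and 22.7 in 76 3P extract cells, was the 1 member with an unadjusted p under 0.05 (difference -0.62, SE 0.19, limma adjusted p = 0.259), and without the 76 3P extract 48 h library it was -0.54 (0.65). BIK had 10.3 and 8.84 FPKM with 74 3NP extract against 4.82 and 8.31 with 76 3P extract (difference 0.52, SE 0.25, adjusted p = 0.434), apart at 24 h and close at 48 h. Between 48 h and 24 h, averaged over treatments, limma and voom called 0 of 10 members. BMF, which had more FPKM at 48 h than at 24 h in all 4 treatments, was the 1 with an unadjusted p under 0.05 (difference 0.33, SE 0.13, adjusted p = 0.449). Of the 13388 genes tested, 1726 had such a p between the extracts and 1394 between the times.

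Sums over the roles put the members on one scale, since FPKM is corrected for length. The inhibitors MCL1 and BCL2L1 summed to 159 and 190 FPKM at 24 h and 48 h in 5-FU cells, 137 and 125 in 74 3NP extract cells, and 150 and 104 in 76 3P extract cells, against 170 and 155 in control cells. BAK1 and BOK summed to 78.0 and 113 FPKM in 5-FU cells, 84.4 and 79.7 in 74 3NP extract cells, and 67.6 and 78.2 in 76 3P extract cells, against 59.6 and 66.8 in control cells. The 5 BH3-only genes summed to 65.2 and 102 FPKM in 5-FU cells, 54.6 and 62.8 in 74 3NP extract cells, and 51.4 and 62.0 in 76 3P extract cells, against 45.3 and 49.3 in control cells. The BH3-only sum was above both controls in every treated library.

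The ratio of the effector and BH3-only sums to the inhibitor sum does not depend on library scaling. It was 0.898 and 1.13 in 5-FU cells, 1.02 and 1.14 in 74 3NP extract cells, and 0.795 and 1.34 in 76 3P extract cells, against 0.618 and 0.747 in control cells, so all 6 treated libraries lay above both controls. The ratio of BAK1 to BCL2L1 was 0.713 and 0.629 in 5-FU cells, 0.621 and 0.673 in 74 3NP extract cells, and 0.602 and 1.13 in 76 3P extract cells, against 0.337 and 0.343 in control cells. These sums are descriptions of RNA over the chosen members, without BAX, BBC3 and PMAIP1, and carry no test. In bulk RNA, fewer cells of one state and less RNA per cell cannot be told apart.

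**Figure D4:**
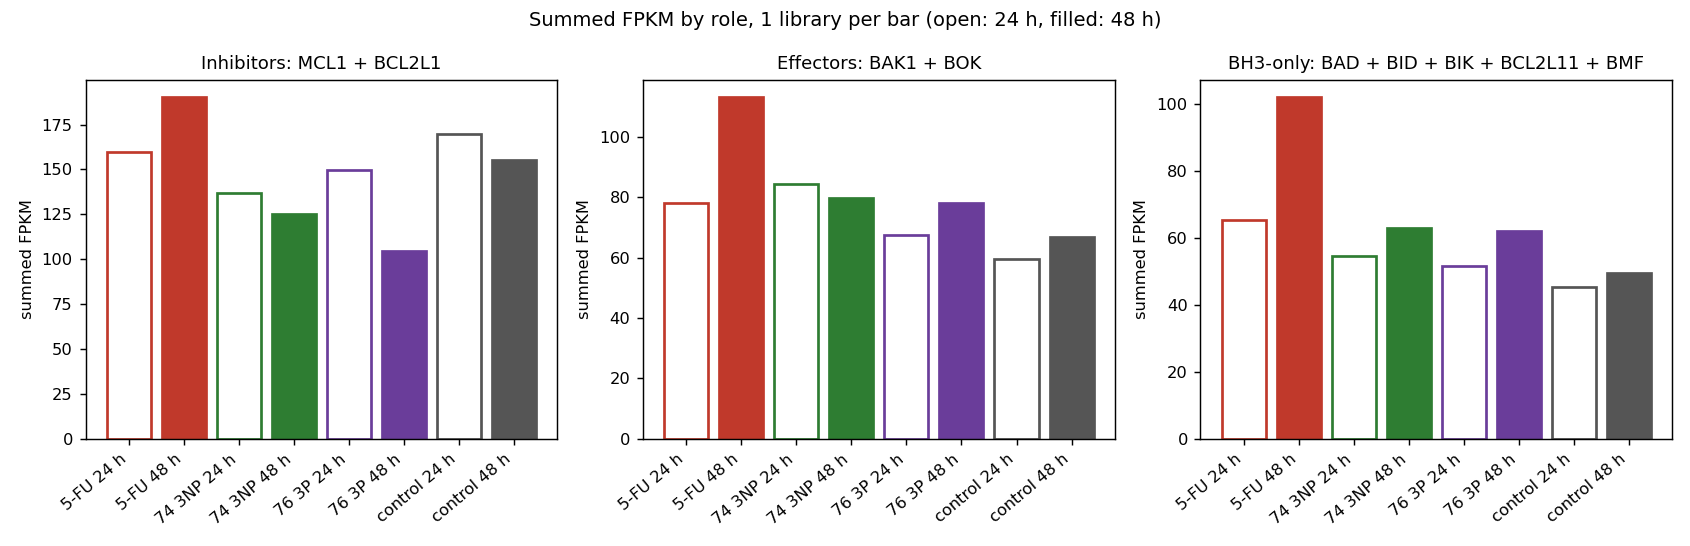
Summed FPKM of the inhibitors, the effectors and the BH3-only genes in each of the 8 libraries, 1 bar per library, open at 24 h and filled at 48 h. The BH3-only sum is 51.4 or more in the 6 treated libraries, above the controls at 45.3 and 49.3, and the inhibitor sum is lowest in the 76 3P extract 48 h library at 104.

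Around the family, 36 other genes of mitochondrial apoptosis were examined, of which 28 passed the filter. The 8 that did not were BCL2 itself, at most 0.193 FPKM, with BCL2A1, BCL2L10, BCL2L14, BCL2L15, HRK, BNIP3 and DIABLO, all below 1 FPKM in every library. DIABLO overlaps the protein-coding gene models AC048338.1 and AC048338.2 on its own strand, both at 0 FPKM throughout. Whether this overlap lowered the reads counted for DIABLO was not tested. With 5-FU 16 of the 28 were higher than the control and 12 lower (median 0.16), with 74 3NP extract 15 and 13 (median 0.05), and with 76 3P extract 11 and 17 (median -0.12). The medians over all genes were 0.003, -0.03 and -0.05. limma and voom called 0 of the 28 against the control with any treatment, while 4, 2 and 2 had an unadjusted p under 0.05 with limma. Over all 13388 genes tested, 3885, 1623 and 2356 had such a p in the same order.

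Among these genes BIRC3, an inhibitor of apoptosis induced by NF-kB, had the largest difference from the control with every treatment among those of the same sign at both times. It had 2.92 and 4.15 FPKM in 5-FU cells, 5.07 and 3.52 in 74 3NP extract cells, and 3.31 and 12.4 in 76 3P extract cells, against 1.70 and 1.23 in control cells, so all treated libraries exceeded both controls. The differences were 0.87 with 5-FU, 1.10 with 74 3NP extract and 1.63 with 76 3P extract (limma adjusted p 0.216, 0.382 and 0.135); with 76 3P extract the difference was 0.67 at 24 h and 2.59 at 48 h. With 5-FU, BCL2L12 (0.64) and the dynein light chain DYNLL1 (0.64) had higher values and the caspase inhibitor XIAP lower ones (-0.58). With 74 3NP extract, APAF1, the scaffold of the apoptosome (-0.44), and the inhibitor BCL2L2 (-0.41) had lower values. With 76 3P extract, the inhibitor BIRC5 had lower values (-0.93) and the mitophagy receptor BNIP3L higher ones (0.36).

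Between 76 3P extract and 5-FU some of the 28 passed, and those given here are named with their values known. BIRC5 was lower than with 5-FU, with 17.7 and 10.6 FPKM in 76 3P extract cells against 27.7 and 48.3 in 5-FU cells (difference -1.35, SE 0.33, limma adjusted p = 0.0282). BCL2L12 was lower, with 17.5 and 10.00 FPKM in 76 3P extract cells against 24.2 and 32.5 in 5-FU cells (difference -1.03, SE 0.27, adjusted p = 0.0361). FOXO3, a transcription factor known to drive BCL2L11, was higher, with 12.2 and 13.4 FPKM in 76 3P extract cells against 8.93 and 5.53 in 5-FU cells (difference 0.78, SE 0.23, adjusted p = 0.0478). Without the 5-FU 48 h or the 76 3P extract 48 h library none of these 3 was called, at -0.89 and -0.83 for BIRC5, -0.68 and -0.60 for BCL2L12 and 0.51 and 0.56 for FOXO3 (adjusted p 0.186 to 0.293). BCL2L12 and FOXO3 were also not called without either control or either 74 3NP extract library (adjusted p 0.0619 to 0.0796).

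The members with the widest ranges were compared with all other tested genes by the Pearson correlation of log2(FPKM + 1) over the 8 libraries. The closest to BAD were a gene model without a name in the table (r = 0.996), METTL17 (0.988) and FAM32A (0.987). The closest to BCL2L1 were FBXO7 (0.980), NUMA1 (0.970) and BRD8 (0.969), and those closest to BMF were MAPK8IP3 (0.965), GIPR (0.964) and FOXD1 (0.963). These are the top values of 13387 genes over only 8 libraries that share 4 treatments, and serve as a description.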

How the data were processed

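RNA was sequenced on an Illumina platform, and per the submitters' processing notes reads were mapped with HISAT2 2.0.5 to GRCh38. The sources used here do not name the counting tool. The authors deposited FPKM for 60796 genes and, per the file headers, filtered reads and percent GC per library. FPKM times length gave whole reads for 100% of values (tolerance 0.01), and the implied denominators followed median-ratio size factors, so the authors' FPKM are not scaled to library totals.

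Values were tested as log2(FPKM + 1), which understates folds of low genes, with limma 3.58.1 (R 4.3.3). The additive model of treatment and time over all 8 libraries used a variance trend and left 3 residual degrees of freedom (median prior 5.39). Its spread holds treatment effects that differ between the times. Tests were two-sided over 7 contrasts, Benjamini-Hochberg adjusted over 13388 genes within each contrast, threshold 0.05. Single times were compared by recovered reads, with exact 95% intervals for counting error only. The scripts were tested on simulated data. All members are named, with the 4 listed pathway genes of largest same-sign difference per treatment, of which 1 is not reported here. Members and lists were chosen with earlier results of these data known. Alternatives were other pseudocounts, filters, scalings, voom, fewer libraries and, added after seeing the data, a loess correction for length and GC content.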

Additional observations from a re-analysis of the deposited data

Results flagged for a closer look

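BCL2L1 and BMF lay on opposite sides of the control at the 2 times with 5-FU, each with counting intervals clear of 1. The 5-FU to control read ratio of BCL2L1 was 0.75 at 24 h (exact 95% interval 0.721 to 0.78) and 1.42 at 48 h (1.37 to 1.48). The ratio of BMF was 0.878 at 24 h (0.806 to 0.956) and 1.11 at 48 h (1.02 to 1.21). The difference between the times was not tested, since each time has 1 library per treatment, and the intervals cover counting error only. Of 30 pairs of a member and a treatment, 6 were on opposite sides of the control at the 2 times, and these were the 2 whose intervals both excluded 1.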

How the results depend on the processing

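Depth did not limit most values, since every member but BIK (85 reads at its lowest) had at least 464 reads in every library, but 1 library per treatment and time did. The count of 10 members called with 5-FU was 1. It was 0 with a pseudocount of 5, without the filter, without the variance trend, with scaling to total reads, with quantile normalization and with the loess correction, 2 with the 4 libraries compared alone, and 3 with a filter at FPKM 5 or with voom. Over all 13388 genes, the main fit called 336 higher and 404 lower with 5-FU, and voom called 1094. The numbers of all genes called in the other settings are not given here. The count of 0 for 74 3NP extract against control was 2 with 4 libraries, and that for 76 3P extract against control was 1 with a filter at FPKM 5. The count of 0 for 74 3NP extract against 5-FU was 1 with a filter at FPKM 5, voom, 4 libraries or the loess correction, and the count of 3 for 76 3P extract against 5-FU was 0 without the filter. Leaving out each library in turn changed the count with 5-FU, for 74 3NP extract against 5-FU and for 76 3P extract against 5-FU. In those contrasts the count of all genes called changed as well. The count of members stayed at 0 in the other 4 contrasts. Such fits assume that a lone library varies like the others. Treatments were compared within time, which is a term of the model, and the labels carry no replicate number beyond 1 that could serve as a further block. The cause of these changes was not tested.

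Signs changed for some differences, all uncalled in the main fit but not all near 0. That of BCL2L1 for 74 3NP extract against 5-FU, for example, was -0.39 in the main fit. Scaling to total reads gave BCL2L1 -0.070 and MCL1 -0.023 for 5-FU against control. Quantile normalization gave BCL2L1 -0.25 and MCL1 -0.18 and BOK -0.063 for 5-FU against control, MCL1 0.024 for 76 3P extract against 5-FU, BCL2L1 -0.023 and BCL2L11 0.016 for 48 h against 24 h. The loess correction gave BCL2L1 -0.17 for 5-FU against control, BAD -0.25 and BOK -0.12 for 74 3NP extract against control, BOK -0.18 for 74 3NP extract against 5-FU, BIK -0.0051 and BCL2L1 -0.037 and BCL2L11 0.083 and BCL2L13 0.0078 and BOK -0.087 for 48 h against 24 h. With voom the difference was BCL2L11 0.026 for 48 h against 24 h. With 1 library left out, differences that changed sign ranged, for 5-FU against control, from BCL2L1 -0.50 to 0.60, BMF -0.15 to 0.12. For 74 3NP extract against control, they were BAD -0.020 to 0.19. For 76 3P extract against control, they were BAD -0.61 to 0.18, BID -0.011 to 0.11. For 74 3NP extract against 76 3P extract, they were BAK1 -0.24 to 0.14, BAD -0.093 to 0.69, BCL2L1 -0.073 to 0.66, MCL1 -0.26 to 0.063, BCL2L11 -0.14 to 0.032. For 74 3NP extract against 5-FU, they were BIK -0.032 to 0.39, BCL2L1 -0.94 to 0.16, BOK -0.096 to 0.23. For 76 3P extract against 5-FU, they were BIK -0.72 to 0.035, BCL2L13 -0.46 to 0.051. For 48 h against 24 h, they were BIK -0.076 to 0.24, BCL2L1 -0.22 to 0.24, BCL2L11 -0.047 to 0.049.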
